A study of Bos taurus with 8 samples.

Results

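The enzymes that supply NADPH, the reductant of milk fat synthesis, were examined in lactating mammary gland of Holstein cows (Bos taurus) that was full of milk or had just been emptied. The members are PGD, IDH1, ME1, TKT and TALDO1, taken as every probe set whose platform annotation names 1 of these symbols and no other. All 5 genes were present, with 8 of the 24016 tested probe sets, which is 5 of the 9155 genes named in this way. The genes are identified by the Entrez numbers 514939 for PGD, 281235 for IDH1, 540985 for ME1, 445425 for TKT and 513453 for TALDO1.

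Biopsies were taken from 4 cows, and each cow gave 1 full sample at 12 h since milk removal and 1 empty sample at 0 h. All 8 samples came from lactating Holstein gland with no other treatment named, and the sources used here give neither the animals' ages nor the gland of the udder sampled. Each sample was hybridised to 1 single-colour array of bovine probe sets, a probe set being a group of short probes for 1 transcript, and values are log2 levels. Whatever else differed between the 0 h and 12 h samplings cannot be told apart from the filling of the gland.

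NADPH carries the electrons that fatty acid synthase uses to build milk fat from acetate in the ruminant udder. PGD, 6-phosphogluconate dehydrogenase, releases NADPH in the oxidative branch of the pentose phosphate pathway, while TKT (transketolase) and TALDO1 (transaldolase) rearrange sugars in its non-oxidative branch and make no NADPH themselves. IDH1, the cytosolic isocitrate dehydrogenase, and ME1, the cytosolic malic enzyme, yield NADPH from isocitrate and from malate, and the ruminant udder is known for relying on isocitrate more than on malate.

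The arrays limit the precision through their number, since signals carry no read depth. Array medians lay between 7.08 and 7.24 log2. Markers of the milk-secreting cell were bright in both states, with LALBA (alpha-lactalbumin) at 14.20 in full and 14.20 in empty gland. That level is near the top of the measured range, so it shows that milk-protein transcripts were abundant and is no measure of the share of luminal cells. The full arrays of cows 2 and 4 stood apart: the median of their correlations with the other 7 was 0.9690 and 0.9753, where each remaining array had 0.9856 to 0.9868. The full array of cow 2 also had a weaker 5' signal. Averaged over 5 control transcripts, its 5' minus 3' difference was -1.91 log2, against -1.22 to -0.76 on the other 7 arrays. The differences of the member probe sets are therefore given with and without cows 2 and 4.

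Over the whole array, limma with a block for each cow called 0 of 24016 probe sets (0%) at an adjusted p of 0.05, and 600 (2.5%) had an unadjusted p under 0.05. None of the 8 member probe sets passed, and each had an adjusted p of 0.993. The brightest probe sets of PGD, TKT, TALDO1 and IDH1 had lower means in full gland and that of ME1 a higher mean. The median difference was -0.12 log2 over the 5 genes, beside -0.0036 over all 9155 genes. PGD and TKT were lower in all 4 cows, as were 7.11% of all genes, and no member was higher in all 4 cows, as were 3.59% of genes. In a bulk biopsy, fewer cells of a type and less RNA per cell cannot be told apart.

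In the oxidative branch, PGD was measured by 1 probe set. Its log2 level in cows 1 to 4 was 10.88, 10.86, 10.52 and 10.45 in empty gland and 10.85, 10.56, 10.38 and 10.25 in full gland. Every cow was lower when full, but cow 1 stayed above the other cows in both states and the 2 groups overlapped. The mean was 10.68 ± 0.22 in empty and 10.51 ± 0.26 in full gland (SD, n = 4). Full minus empty was -0.17 ± 0.08 log2 (limma's moderated SE), which is 0.889 of the empty level with a 95% interval from 0.782 to 1.01. By cow the difference was -0.03, -0.30, -0.14 and -0.20. The exact sign-flip permutation test over the 4 cow differences was at its limit, with 2 of the 16 sign patterns as extreme as the one seen, so it cannot pass a two-sided threshold of 0.05 with 4 pairs. Without cows 2 and 4 the difference was -0.08.

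Levels of PGD were also compared between cows. Its mean over a cow's 2 samples was 10.87, 10.71, 10.45 and 10.35 in cows 1 to 4, a range of 0.52 log2. This was the highest F of the 5 brightest member probe sets in limma's moderated test of the cow terms (F = 9.97, adjusted p = 0.222), and it did not pass, where 105 of the 24016 probe sets (0.437%) did. Of the other 4, ME1 had an F of 3.58 (adjusted p = 0.393), followed by TKT at 2.83, TALDO1 at 2.60 and IDH1 at 1.39, whose adjusted p in the same limma test was 0.441, 0.458 and 0.612. The dimmest IDH1 probe set had an F of 4.76 (limma's adjusted p = 0.341), above its brightest.

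In the non-oxidative branch, TKT had the narrowest spread between cows in its response. Its level in cows 1 to 4 was 11.43, 11.26, 11.32 and 11.38 in empty gland and 11.37, 10.98, 11.17 and 11.26 in full gland. All 4 cows were lower when full, with differences of -0.06, -0.29, -0.15 and -0.12, and the groups overlapped, with the full gland of cow 1 above the empty gland of cows 2 and 3. Full minus empty was -0.15 ± 0.07 log2 (SE, n = 4 cows), from 11.35 ± 0.07 to 11.19 ± 0.17 (SD). The 95% interval ran from -0.33 to 0.02, so a mean level more than 1.26-fold lower in full gland lay outside it. The exact sign-flip test was again at its limit of 2 in 16 patterns. Without cows 2 and 4 the difference was -0.11, smaller by less than the spread between cows.

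TALDO1, the partner of TKT, did not share one direction. Its level in cows 1 to 4 was 11.63, 11.52, 11.63 and 11.57 in empty gland and 11.72, 11.02, 11.81 and 11.31 in full gland. The empty glands lay close together (SD 0.05, n = 4) and the full glands spread around them (SD 0.37). Full gland was higher by 0.09 in cow 1 and by 0.18 in cow 3, while the difference was -0.50 in cow 2 and -0.26 in cow 4. The mean difference was -0.12 ± 0.13 log2 (limma's SE, n = 4 cows), with a 95% interval from -0.44 to 0.20 and an exact sign-flip p of 0.625. The 2 full arrays that stood apart thus held both low values, and without cows 2 and 4 the difference was 0.14 ± 0.09, with an adjusted p of 0.713 in limma over 2 cows.

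**Figure D1:**
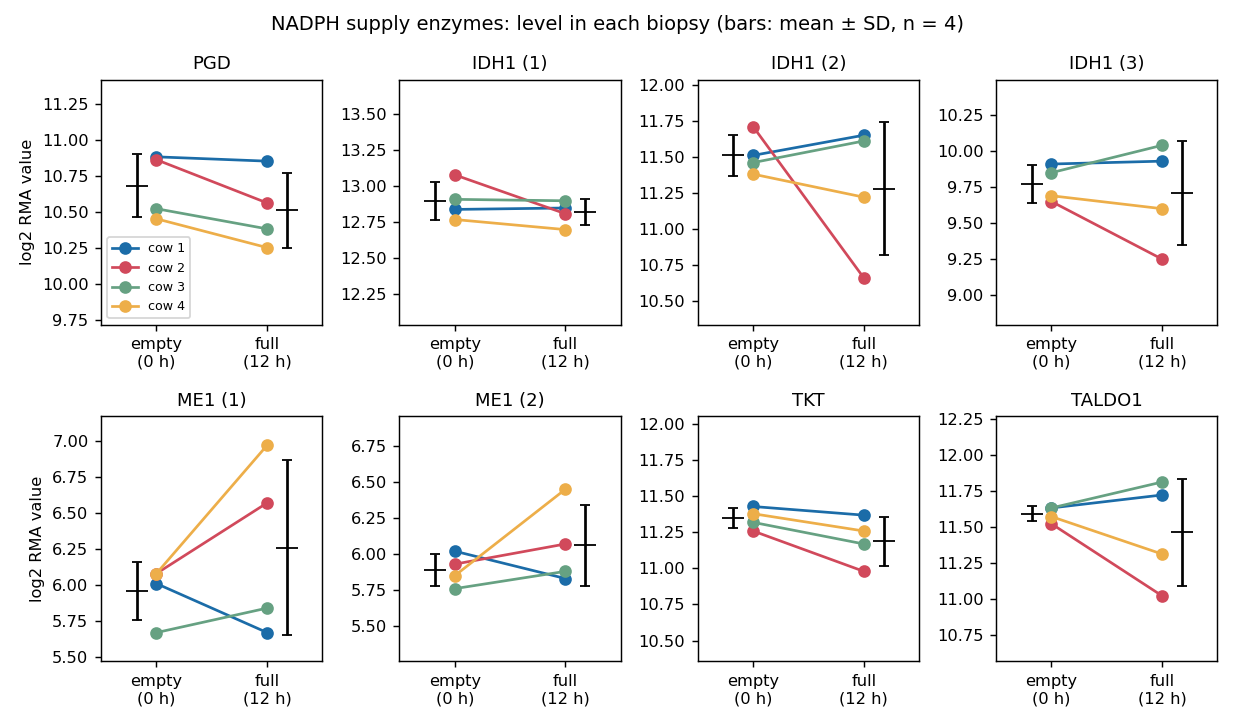
Log2 RMA value (y axis, every panel spanning the same range) of each member probe set in empty (0 h) and full (12 h) gland, with a line for each cow and the mean ± SD beside each group (n = 4). Numbers in brackets order the probe sets of a gene from bright to dim. PGD and TKT slope down in all 4 cows, TALDO1 and the 2 dimmer IDH1 probe sets split into cows 1 and 3 against cows 2 and 4, and both ME1 probe sets reach their highest value in full gland of cow 4.

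IDH1 was measured by 3 probe sets, and they gave differences of unequal size. The brightest was at 12.84, 13.08, 12.91 and 12.77 in empty and 12.85, 12.81, 12.90 and 12.70 in full gland of cows 1 to 4. Its largest shift was the -0.26 of cow 2, with 0.02, -0.0054 and -0.07 in cows 1, 3 and 4. The mean difference was -0.08 ± 0.08 log2 (limma's SE, n = 4 cows), with a 95% interval from -0.27 to 0.11, and the exact sign-flip p was 0.375.

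The IDH1 probe set of middle brightness stood at 11.51, 11.71, 11.46 and 11.38 in empty gland and at 11.65, 10.66, 11.61 and 11.22 in full gland. One value, the full gland of cow 2, lay far below the rest, and its difference of -1.05 log2 was the largest of any member probe set in any cow. The other 3 cows differed by 0.14, 0.15 and -0.16. The mean difference of -0.23 ± 0.21 had a 95% interval from -0.75 to 0.30, and without cow 2 it was 0.04. The dimmest IDH1 probe set was at 9.91, 9.65, 9.85 and 9.69 in empty and 9.93, 9.25, 10.04 and 9.60 in full gland. It went the same way in each cow, with differences of 0.03, -0.40, 0.19 and -0.09 and a mean of -0.07 ± 0.11.

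The array with the lowest values of the middle and dimmest IDH1 probe sets, the full array of cow 2, was the one with the weak 5' signal. The brightest IDH1 probe set was instead lowest on the full array of cow 4, at 12.70, against 12.81 on that of cow 2. With the 5' minus 3' difference of the control transcripts as a covariate in limma, the SE of the middle IDH1 probe set went from 0.21 to 0.08, and its difference was -0.15 in place of -0.23. For TALDO1 the SE went from 0.13 to 0.09 and the difference from -0.12 to -0.08. The dimmest IDH1 probe set differed by -0.03 in place of -0.07. Neither ME1 probe set had a smaller SE, which went from 0.20 to 0.21 and from 0.13 to 0.14 beside differences of 0.28 and 0.17. The brightest IDH1 probe set, PGD and TKT differed by -0.06, -0.16 and -0.14 in that model. Every one of these adjusted p-values was 0.933 or above in limma, and the position of each probe set along its transcript was not analysed here. The covariate was set largely by the full array of cow 2, at -1.91 against -1.22 to -0.76 on the others. A probe set with an extreme value on that array can lose SE in this model whatever the reason.

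**Figure D2:**
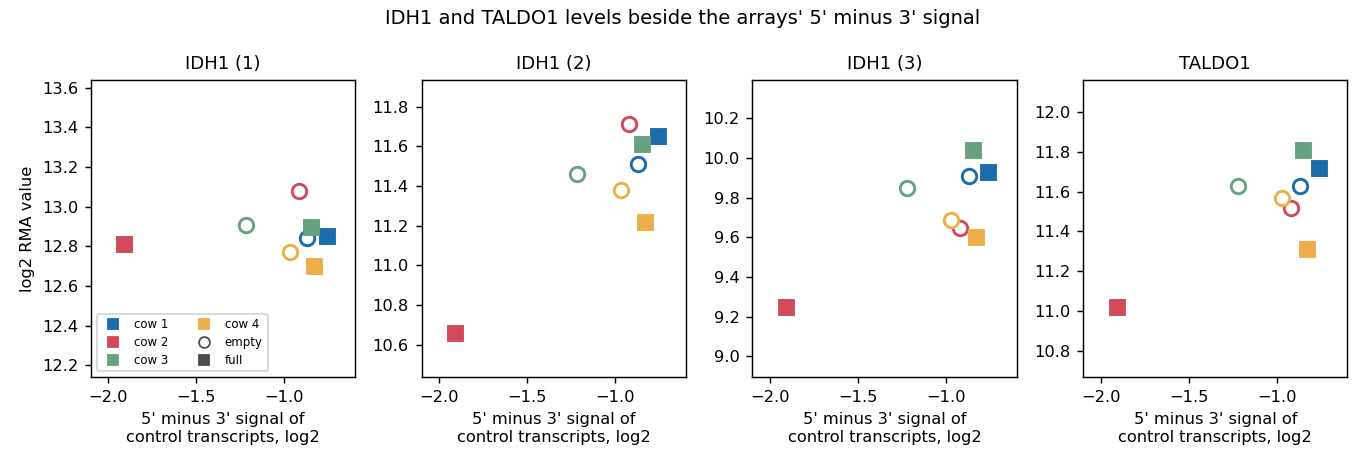
Log2 RMA value of the 3 IDH1 probe sets and of TALDO1 (y axis) against the mean 5' minus 3' log2 signal of 5 control transcripts (x axis) on each of the 8 arrays, with open circles for empty and filled squares for full gland, coloured by cow. The full array of cow 2, at -1.91, holds the lowest value of the 2 dimmer IDH1 probe sets and of TALDO1, while the full array of cow 4, at -0.83, is also below the remaining arrays for TALDO1.

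ME1 was dim in every sample and went the other way. Its brighter probe set was at 6.01, 6.08, 5.67 and 6.08 in empty and 5.67, 6.57, 5.84 and 6.97 in full gland of cows 1 to 4, all below the array medians. Cows 2, 3 and 4 were higher when full, by 0.49, 0.17 and 0.88, and cow 1 differed by -0.34. The mean went from 5.96 ± 0.20 to 6.26 ± 0.61 (SD, n = 4), a difference of 0.30 ± 0.20 log2 (SE) with a 95% interval from -0.18 to 0.78 and an exact sign-flip p of 0.375. The 2 groups overlapped, since the full glands of cows 1 and 3 were below 3 of the empty ones.

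The dimmer ME1 probe set was at 6.02, 5.93, 5.76 and 5.85 in empty and 5.83, 6.07, 5.88 and 6.45 in full gland. It moved in the same direction as the brighter one in each cow, by -0.19, 0.14, 0.12 and 0.60. Its mean difference was 0.17 ± 0.13 log2 (SE, n = 4 cows), with a 95% interval from -0.16 to 0.49. Without cows 2 and 4 the brighter probe set differed by -0.09 and the dimmer one by -0.04, so the higher mean of ME1 lay in the 2 full arrays that stood apart.

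Several lists of markers of other cells had their highest median differences in cows 2 and 4, as ME1 did. Fibroblast and matrix genes had median differences of -0.55, 0.17, -0.09 and 0.82 in cows 1 to 4 over 7 measured of 8 listed genes, and their summed level spanned 14.09 to 14.69 log2 in empty and 13.97 to 15.19 in full gland. Myeloid and neutrophil genes had medians of -0.20, 0.33, -0.19 and 0.77 over 9 of 10 genes, with sums from 11.78 to 11.97 in empty and 11.61 to 12.34 in full gland. T and natural killer cell genes (9 of 9) had medians of -0.18, 0.36, -0.07 and 0.46, and sums from 12.13 to 12.40 in empty and 11.54 to 12.24 in full gland. In cow 2 the sums of both immune lists went against their medians, from 12.13 to 11.54 for T and natural killer and from 11.90 to 11.76 for myeloid genes. The bright genes ZAP70 and CD14 differed there by -1.02 and -0.97. ZAP70, at 11.87 in empty and 11.56 in full gland, carried the T and natural killer sum. CD8A, the next brightest of that list, was at 7.48 and 7.78, so the sum is no measure of T cells. Myoepithelial genes (8 of 8) reached 0.68 in cow 4, against -0.02, 0.14 and -0.03 in cows 1 to 3, with sums from 13.28 to 13.74 in empty and 13.22 to 14.34 in full gland.

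Adipocyte genes, the other cell type in which these enzymes serve fat synthesis, had medians of -0.08, -0.21, -0.05 and -0.04 over 7 of 9 listed genes. Their summed level spanned 13.33 to 14.05 in empty and 13.16 to 14.02 in full gland, but FABP4 and CIDEA carried that sum. The other 5 genes were dim, with the adipokine ADIPOQ at 5.37 and 5.34 in empty and full gland, so the sum is no measure of adipocytes. CIDEA differed by 0.06, -1.04, 0.0053 and -0.78, and CIDEC by -0.31, 1.01, -0.17 and -0.14. Endothelial genes (7 of 7) had medians of -0.12, -0.42, 0.15 and 0.12 and B and plasma cell genes (4 of 6) of -0.09, 0.03, -0.08 and 0.53. The erythroid list (4 of 4) lay between -0.05 and 0.06 in every cow. The luminal list (9 of 9) had medians between -0.06 and 0.06 in all 4 cows, but 6 of its genes are milk proteins near the top of the range. Its other 3 genes were less even, with KRT18 at -0.04, 1.19, -0.05 and 1.36, KRT8 at -0.72, 0.11, 0.25 and 1.21 and EPCAM at 0.01, 0.81, -0.14 and 0.23 in cows 1 to 4. KRT18, a luminal keratin, was thus also higher in full gland of cows 2 and 4, as ME1 was. So were KRT14, at -0.56, 1.29, 0.11 and 1.53, and KRT5, at -0.43, 0.84, -0.30 and 0.68, both of the myoepithelial list. In that list ACTA2 and TAGLN were lower in cow 2, at -0.28 and -0.80. The part of these cells in the differences of ME1 and the other members was not tested. None of the marker genes passed in limma.

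**Figure D3:**
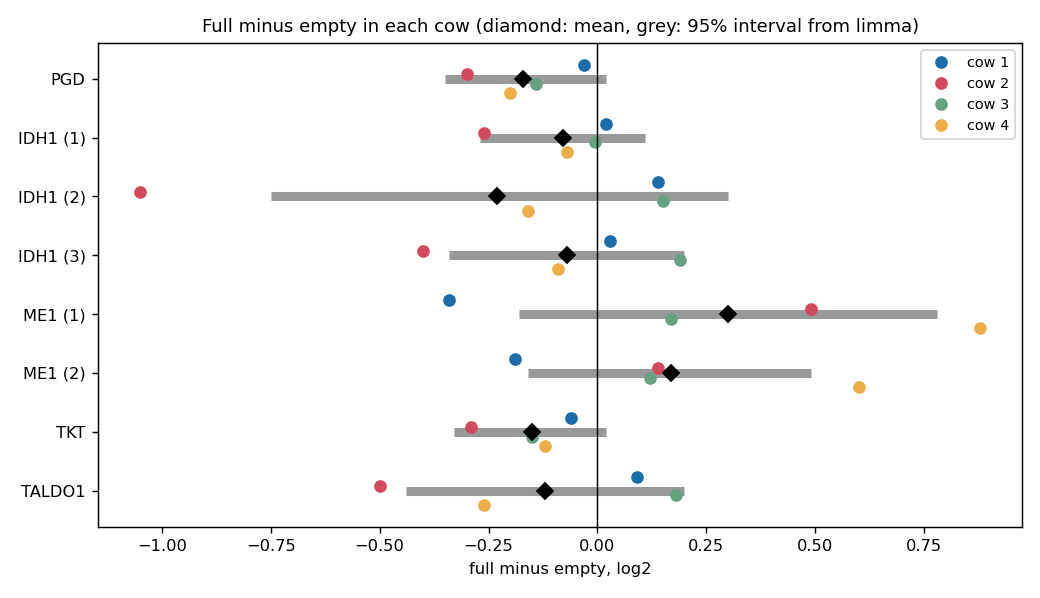
Full minus empty log2 difference (x axis) of each member probe set in cows 1 to 4 (coloured points), with the mean as a diamond and limma's 95% interval as a grey bar. Each interval includes 0, from -0.35 to 0.02 for PGD to -0.18 to 0.78 for the brighter ME1 probe set, and the -1.05 of IDH1 in cow 2 lies farthest from 0.

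Read by cow, the members other than ME1 were near 0 in cow 1 and lower in cow 2. The brightest probe sets of PGD, IDH1, TKT and TALDO1 spanned -0.06 to 0.09 log2 in cow 1, -0.50 to -0.26 in cow 2, -0.15 to 0.18 in cow 3 and -0.26 to -0.07 in cow 4. All 4 genes were lower in cows 2 and 4, 3 of 4 in cow 3 and 2 of 4 in cow 1. The median of all genes in the same cows was -0.05, 0.03, -0.02 and 0.02. The SD of the differences over all probe sets was 0.19, 0.38, 0.17 and 0.30, so the cows with the lower members were also those with the widest spread.

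Of the wider pentose phosphate list, 12 of 17 genes were named on the array, and 0 passed in limma in either direction. The median difference was -0.07 log2, and 10 of the 12 had a lower mean, as did 51.4% of all genes, with 4 lower in all cows, as were 7.11% of all genes. The members PGD, TKT and TALDO1 are themselves among the 10, and PGD and TKT are among the 4, beside GPI and SHPK. PGLS, the lactonase that precedes PGD, differed by -0.04 ± 0.07 (SE, n = 4 cows), RPE, the epimerase between PGD and TKT, by -0.01 ± 0.07 and RPIA, the isomerase beside it, by 0.06 ± 0.11. SHPK, a kinase that forms sedoheptulose 7-phosphate, a substrate of TKT and TALDO1, differed by -0.25 ± 0.11, with -0.0028, -0.54, -0.05 and -0.39 in cows 1 to 4.

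Among genes of isocitrate, malate and citrate cycling, 13 of 16 were named, 0 passed, and the median difference was -0.08, with 8 means lower and 5 higher. The 8 include the member IDH1 and the 5 the member ME1. SLC25A1, which carries citrate out of mitochondria and so feeds cytosolic IDH1, had the smallest unadjusted p of the list (0.0272, limma's adjusted p = 0.993). It differed by -0.38 ± 0.13 log2, with -0.33, -0.73, 0.03 and -0.51 in cows 1 to 4. ACO1, the cytosolic aconitase that makes isocitrate from citrate, differed by -0.20 ± 0.10 and by 0.04, -0.40, -0.06 and -0.38. ACLY, ATP-citrate lyase, differed by 0.22 ± 0.14 and, as with ME1, was highest against empty gland in cow 4 at 0.60 and cow 2 at 0.44. The mitochondrial relatives IDH2, ME2 and ME3 differed by 0.07 ± 0.14, 0.06 ± 0.13 and 0.19 ± 0.10, and NNT, the mitochondrial transhydrogenase, by -0.06 ± 0.11. ME3 was higher in all 4 cows, as were 3.59% of all genes, by 0.03, 0.02, 0.25 and 0.45 in cows 1 to 4.

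The folate route to NADPH had 7 of 9 genes named and a median of 0.04 (2 means lower, 5 higher), with MTHFD1 at -0.11 ± 0.08 and SHMT2 at -0.18 ± 0.09. NAD and NADP formation had 7 of 9 named and a median of -0.11, with all 7 differences below 0, as were 51.4% of all genes. The NAD kinases NADK and NADK2, which make NADP, were at -0.14 ± 0.16 and -0.13 ± 0.07, and NMNAT1, which forms NAD, at -0.12 ± 0.07. By cow NADK differed by 0.0075, -0.72, 0.16 and -0.0044, so its lower mean lay in cow 2. NADPH users of lipid synthesis had 10 of 14 named and a median of -0.16. All 10 had a lower mean, as did 51.4% of all genes. FASN, the fatty acid synthase, differed by -0.24 ± 0.16, of which cow 4 gave -0.84 and the other cows 0.03, -0.08 and -0.08. The sterol enzymes NSDHL and DHCR7 differed by -0.23 ± 0.08 and -0.20 ± 0.09, and both were lower in all 4 cows, as were 7.11% of all genes. NADPH users of redox defence had 8 of 9 named and a median of 0.0032 (4 means lower, 4 higher), with the quinone reductase NQO1 at 0.14 ± 0.09 and TXNRD2, a mitochondrial thioredoxin reductase, at -0.10 ± 0.08. No gene of these 4 lists passed in limma, where the smallest adjusted p was 0.993.

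**Figure D4:**
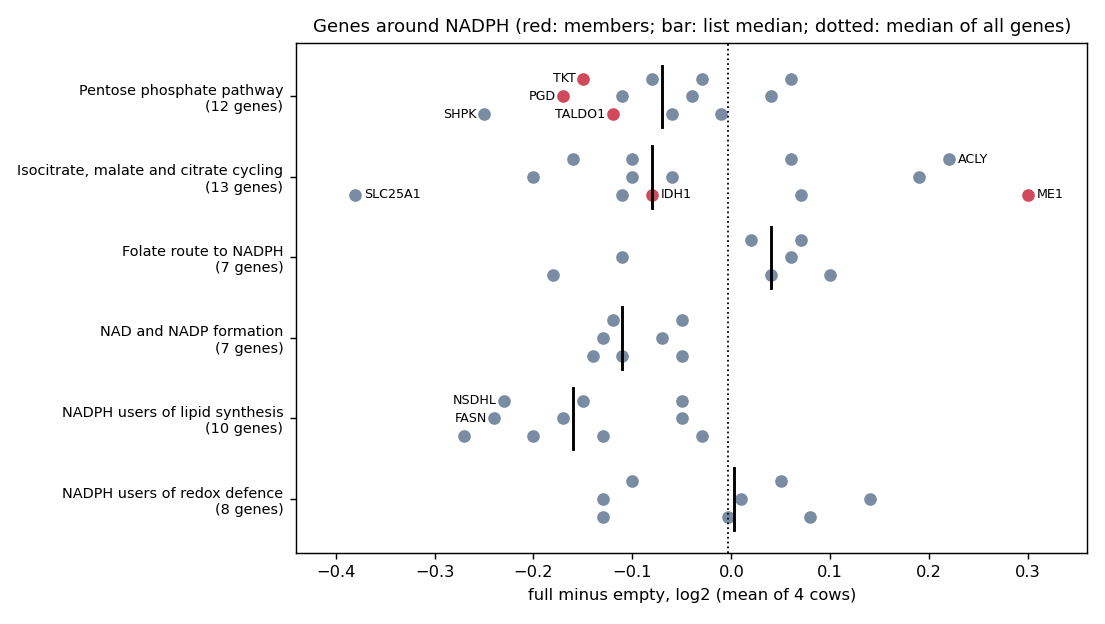
Mean full minus empty log2 difference over 4 cows (x axis) for the measured genes of 6 lists around NADPH, with members in red, the list's median as a bar and the median of all 9155 genes as a dotted line. PGD, TKT, TALDO1 and IDH1 lie between -0.17 and -0.08, ME1 at 0.30 is the highest point and SLC25A1 at -0.38 the lowest.

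The patterns most like those of the members were sought among 7539 genes by Pearson's r of the log2 level over the 8 arrays, which come from 4 cows. Each r is the top of many and is given as a description. The levels of PGD were followed most closely by MRPS30, a mitochondrial ribosomal protein (r = 0.983), SYT17 (0.982) and GHR, the growth hormone receptor (0.965). TKT was followed by ZNF414 (0.991), KLC2, a kinesin light chain (0.963), and UBXN11 (0.960), and TALDO1 by TMEM208 (0.993), CLCN4 (0.992) and NCBP2AS2 (0.990). For IDH1 the top values were lower, at 0.939 for POLR3D, 0.938 for UMAD1 and 0.924 for the kinase FGR. ME1 was followed by DOCK10 (0.990), the vesicle coat gene SEC23A (0.990) and IDH3A, a subunit of the NAD-linked mitochondrial isocitrate dehydrogenase (0.989). IDH3A differed by -0.38, 0.73, 0.19 and 0.92 in cows 1 to 4, beside -0.34, 0.49, 0.17 and 0.88 for ME1.

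A lone difference would have had to be large beside those measured to pass. As the only call among 24016 probe sets, a difference of 1.40 log2 would have been needed for PGD, 1.33 for TKT, 1.45 for the brightest IDH1 probe set, 2.42 for TALDO1 and 3.67 for the brighter ME1 probe set in limma. Smaller differences can pass when many probe sets change together, which eases the adjustment. The 95% intervals were narrower, and their ends lay at 1.28-fold lower for PGD, 1.26-fold for TKT, 1.21-fold for the brightest IDH1 probe set and 1.36-fold for TALDO1. For the brighter ME1 probe set the upper end was 1.72-fold higher.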

How the data were processed

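The authors deposited log2 values, 1 per probe set and array. The submitters' processing notes name RMA without a version, a method of background correction, quantile normalization and probe summary under which changes common to nearly all genes are lost. That the scale is log2 follows from the range of the values (4.98 to 14.43 over tested probe sets). Labelling from an oligo(dT) primer, per the labels' protocols, makes probe sets far from the 3' end sensitive to broken RNA.

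Of 24128 probe sets, 112 platform controls were left out of tests. Among the 24016 tested, 13292 had 1 symbol, 86 several and 10638 none. A gene's brightest probe set represents it, with all probe sets of members shown. The member genes' Entrez numbers (5 of 5) matched RefSeq genes of ARS-UCD2.0. No genome was used, so no coordinates or sequences are given.

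limma 3.58.1 in R 4.3.3 (lmFit, eBayes, two-sided) was fitted with fixed terms for state and cow on the unaltered values, with 3 residual and 2.81 prior degrees of freedom, and Benjamini-Hochberg adjustment over all 24016 probe sets at 0.05. The sample descriptions give the cow of each sample, which pairs them. Deviations from group means correlated at 0.457, 0.319, 0.597 and 0.525 within cows 1 to 4 and at -0.0311 or below between cows. The exact sign-flip test used each cow's difference. Control transcripts entered the 5' minus 3' measure where their mean level was above 8 log2, which left out actin.

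Members and lists were chosen with earlier results of these data known. The text names all member probe sets, 15 listed pathway genes where present, the 2 lowest unadjusted p-values of each list, the brightest 2 markers of a list where named, and the 3 genes most like each member among those with an SD of at least 0.1. GPI, KRT5, KRT8, KRT14, KRT18, TAGLN, EPCAM, ADIPOQ and CIDEC fall outside this rule and were picked once their values had been seen. The alternatives were no replicate block, median centring, a random block for cow, brighter probe sets only, quantile normalization run again, each replicate or cows 2 and 4 left out, a trended robust prior, array weights, a threshold of 0.10 and averaging a gene's probe sets. The 5' minus 3' covariate was added after seeing the data. The fit was tested on simulated data. Tables used pandas 2.3.3 in Python 3.11.15.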

Additional observations from a re-analysis of the deposited data

Results flagged for a closer look

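In empty gland, the brighter ME1 probe set had 1 cow apart from the rest. Cow 3 was at 5.67 log2 against 6.01, 6.08 and 6.08 in cows 1, 2 and 4, and its gap to the nearest of them was 0.831 of the group's range, just above Dixon's 95% critical value for 4 samples. In the dimmer ME1 probe set cow 3 was also the lowest empty gland, at 5.76, but the same ratio was 0.353. With 24 sets of 4 values examined over the member probe sets, about 1 in 20 is flagged by chance.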

How the results depend on the processing

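No probe set passed under any alternative (0 in each), including no replicate block, cow as a random replicate block and a threshold of 0.10, so the block changed no call. Over all member probe sets and alternatives, 93 of 104 values kept their direction and their side of the threshold and 11 changed sign, with adjusted p-values of limma from 0.677 to 1. In this balanced design, no block, a random block, the trended robust prior and the filter for brighter probe sets return the same mean difference by construction. Those values could not change sign, and no probe set passed anywhere, so the count of 93 is a weak measure of stability. PGD (-0.19 to -0.14 in models of all 4 cows, -0.22 to -0.12 with a cow left out) and TKT (-0.17 to -0.13 and -0.19 to -0.11) kept their sign under every alternative run. Both were lower in all 4 cows, so leaving cows out could not turn their sign. With no replicate block the PGD difference stays at -0.17 by construction, while its SE went from 0.08 to 0.16. Without cows 2 and 4 the sign turned for the 3 IDH1 probe sets from bright to dim (0.0052, 0.15 and 0.11), TALDO1 (0.14) and both ME1 probe sets (-0.09 and -0.04). Without cow 2 it turned for TALDO1 (0.0028) and the middle and dimmest IDH1 probe sets (0.04 and 0.04), and their values with a cow left out ranged from -0.22 to 0.0028, from -0.36 to 0.04 and from -0.15 to 0.04. With array weights, which were lowest for cow 2, TALDO1 was at 0.02 and the dimmest IDH1 probe set at 0.04. The cause of these turns was not tested. With 1 cow left out the brighter ME1 probe set lay between 0.11 and 0.51. The between-cow tests stayed on the same side of the threshold in all alternatives run. Signal over background limits ME1, whose probe sets lay below the array medians throughout.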
